A study of Mus musculus with 18 samples.

Results

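MK5-depleted and ERK3-depleted C2C12 cells were compared directly with each other on day 2 of differentiation (DM2), with 3 libraries of each line, 6 of the 18 libraries in the series. C2C12 is a mouse myoblast line whose cells fuse into myotubes in differentiation medium. Both depleted lines are stable lines made with the plasmid px459, which carries Cas9 and a guide RNA: the guide targeted Mapk6, the gene of ERK3, in one line and the gene of MK5, Mapkapk5, in the other. No control library entered the tests. The control line received a control plasmid, and its 3 DM2 libraries are given only as a level beside the depleted lines, while the 6 libraries of the depleted lines in growth medium (GM), in which the cells go on dividing, serve to ask whether a difference was there before differentiation. No source used here says whether the 3 libraries of a line came from separate cultures or clones. P-values measure the spread between these libraries or, in the paired test below, the spread of the differences between same-numbered libraries. Either spread may be technical.

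ERK3 is an atypical MAP kinase that is regulated largely through how fast it is degraded. MK5 is a protein kinase that binds ERK3, is moved out of the nucleus with it and is activated by it, so the guides of the lines target different members of one kinase pair. The series title places the pair upstream of the transcription factor FoxO3 in muscle differentiation. In that process myoblasts switch on MyoD family regulators, leave the cell cycle, fuse through Myomaker and Myomixer, and build sarcomeres.

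The targeted genes were examined first. Mapk6 (ENSMUSG00000042688.16, GRCm38 chr9:75369062-75410005, minus strand) held 116, 96.8 and 136 CPM (read counts per 1000000 reads of the TMM-scaled library size) in ERK3-depleted libraries 1, 2 and 3 at DM2, and 161, 153 and 163 CPM in the MK5-depleted ones. All MK5-depleted values lay above all ERK3-depleted ones, and both lines lay below the control level of 210 ± 7.83 CPM (SD, n = 3). Mapk6 was 1.38-fold higher in MK5-depleted cells (log2 fold change 0.47 ± 0.10, the ± here and below being the standard error; adjusted p = 0.0351 in the paired test described next). Mapkapk5 could not be judged from the gene counts, because only 11 to 18 reads per library were assigned to it. Its span overlaps Gm42878 on the same strand, and reads shared by overlapping genes are not counted. The authors' RSEM estimates, which divide shared reads, put Mapkapk5 at 55.9 ± 10.4 TPM in ERK3-depleted, 49.1 ± 8.12 in MK5-depleted and 69.2 ± 3.19 in control cells at DM2 (SD, n = 3 each), so the depleted lines overlapped. In GM the same estimates were 59.6 ± 4.05 TPM in ERK3-depleted and 33.3 ± 2.40 in MK5-depleted cells, with no overlap, and 55.5 ± 3.46 in control cells. Mapk6 by the same estimates was 41.9 ± 6.4 TPM in ERK3-depleted and 46.0 ± 6.01 in control cells in GM, against 32.4 ± 9.54 and 85.5 ± 6.54 at DM2 (SD, n = 3 each). Transcripts of both targeted genes were thus still present in their lines; transcript levels of a gene cut by Cas9 need not follow its protein, and no protein level was analysed here. Of the 12 tested members of a list around this kinase module (its activators, relatives and partners), Mapk6 was the 1 called.

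Between 17867939 and 19417857 reads per library were assigned to genes in the 6 libraries. Same-numbered libraries of the lines moved together at DM2, and the replicate number was therefore also entered as a block, which compares each MK5-depleted library with the ERK3-depleted library of its number. Libraries 1 and 2 also moved together across numbers, though less so than within a number. Their correlations over genes were 0.1512 and 0.1576 across numbers, against 0.3162 and 0.3852 within. Genes with a Benjamini-Hochberg adjusted p under 0.05 are called. Library 3 stood apart in both lines, with the highest level of Myog and Actc1 and the lowest of Malat1. Several read shares also moved with the lines. Reads outside annotated genes made up 5.55, 7.73 and 3.79% of reads in ERK3-depleted libraries 1, 2 and 3, against 3.96, 4.11 and 2.84% in MK5-depleted and 2.44 to 3.05% in control ones. Mitochondrial genes took 3.39, 5.51 and 2.27% of gene reads in the ERK3-depleted and 2.88, 2.87 and 0.827% in the MK5-depleted libraries. In each pair the ERK3-depleted library had more of both, so within pairs these shares and the line cannot be told apart.

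**Figure D1:**
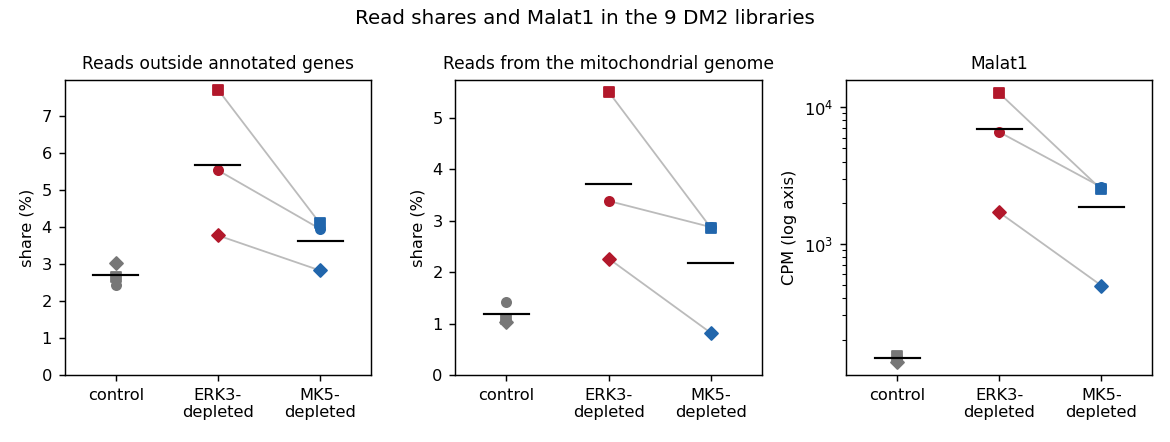
Share of reads outside annotated genes (%), share of gene reads from mitochondrial genes (%) and Malat1 level (CPM, log axis) in the 9 DM2 libraries. Circles, squares and diamonds are replicates 1, 2 and 3, grey lines join same-numbered depleted libraries and black bars are means; in each pair the MK5-depleted library is the lower one in all 3 panels.

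Without the block, edgeR's quasi-likelihood test called 0 of 13146 genes, and the smallest adjusted p was 0.495. At an unadjusted p under 0.05 there were 1039 genes (7.9%). DESeq2 without the block called 5 genes: Prss23os higher and Igfbp4, Serpine2, Msln and Krt14 lower in MK5-depleted cells. With the block, 538 genes (4.09%) were called, 185 higher (1.41%) and 353 lower (2.69%) in MK5-depleted cells. All further calls at DM2 are from this paired test, and edgeR called none of these genes without the block at the same filter on low counts. Counts of called list members below are to be set beside these shares of 1.41% and 2.69%, since a list with few calls can lie near them. The 538 genes had the same sign in every one of the 3 pairs, as did 44.7% of all tested genes. For 134 of them the libraries of the lines did not overlap, while over all tested genes 4.73% were higher and 5.67% lower in every MK5-depleted library. The changes were mostly modest: the median log2 fold change was 0.63 among the higher and -0.64 among the lower genes, and 36 and 84 genes passed 2-fold.

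The calls depend on which libraries and terms are used. The paired fit left 2 residual degrees of freedom per gene, and 1 when a pair was left out or the share of reads outside genes was added. That share was also higher in the ERK3-depleted library of every pair, so its term competes with the line. A call lost in these fits therefore need not mean a lost difference. Without the block, leaving out ERK3-depleted library 3 gave 618 higher and 807 lower genes, while leaving out any other of the 6 gave 0. With pair 1 left out, 26 genes were higher and 117 lower, and 133 of the 538 were still called. Without pair 3 the counts were 1433 and 1465, and all 538 were still called. When the outside-gene share of each library was added as a term, 0 genes were higher and 9 lower (0.0685%; Igfbp4, Nefl, Edil3, Gulp1, Sema3d, Ppp1cb, Tmed5, Mir703 and Gm37376), although 536 of the 538 kept their sign. The median log2 fold change of the called genes then moved from 0.63 to 0.36 for the higher and from -0.64 to -0.46 for the lower ones. Of the 30 lists with a called member, 22 held none without pair 1, 11 none with RSEM counts and 29 none with the outside-gene share, while 27 held more without pair 3. The split between directions moved with scaling: TMM factors from all genes with a count gave 260 higher and 303 lower genes, against 185 and 353 here.

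**Figure D2:**
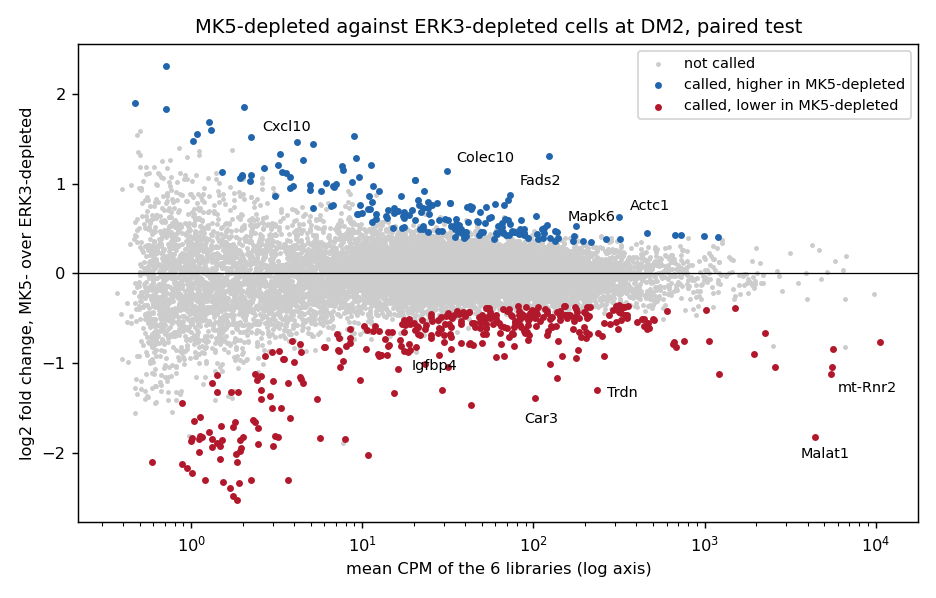
Each point is 1 of 13146 tested genes, with its mean CPM over the 6 libraries (log axis) and its log2 fold change of MK5-depleted over ERK3-depleted cells at DM2 from the paired test. Blue and red points are the 185 genes called higher and the 353 called lower; Malat1 and mt-Rnr2 lie far to the right among the lower ones.

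Muscle genes did not move as one group. The gene of MyoD, the founding myogenic regulator, was not called: Myod1 held 183, 187 and 182 CPM in ERK3-depleted and 176, 188 and 210 CPM in MK5-depleted libraries (log2 fold change 0.05 ± 0.09, adjusted p = 0.777). Myogenin (Myog), which drives terminal differentiation, held 333, 294 and 499 CPM in ERK3-depleted against 435, 370 and 623 CPM in MK5-depleted libraries. It was higher in every MK5-depleted library than in its pair, but narrowly missed the threshold (log2 fold change 0.35 ± 0.08, adjusted p = 0.0515; 0.0402 with the TMM factors from all genes). With the outside-gene share as a term and no block its log2 fold change turned to -0.11. Both genes were picked for mention after their values had been seen. Of 27 tested myogenic regulators 1 was called higher, Snai1, a repressor that competes for E-boxes (0.40 ± 0.09, adjusted p = 0.0468). One was called lower, Mef2c, a partner of the MyoD family, at 8.17, 5.39 and 4.56 CPM in ERK3-depleted and 3.64, 2.02 and 2.37 CPM in MK5-depleted libraries. The Mef2c values rest on 37 to 147 reads per library; its log2 fold change was -1.17 ± 0.18 (adjusted p = 0.0155).

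Among the 24 tested fusion genes, Myomaker (Mymk), the membrane protein that fusing myoblasts need, was the 1 called. It stood at 86.8, 63.0 and 139 CPM in ERK3-depleted and 119, 87.0 and 224 CPM in MK5-depleted libraries, a log2 fold change of 0.54 ± 0.09 (adjusted p = 0.0177). The groups overlap, and each pair shows the difference. With the outside-gene share as a term and no block its sign turned, at -0.17. The control level was higher than either, at 349 ± 20.6 CPM (SD, n = 3). Mymx, the gene of Myomixer, had a log2 fold change of 0.19 and an adjusted p of 0.293. The median over the fusion list was 0.12, beside -0.01 over all genes tested.

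The 56 tested sarcomere genes had a median log2 fold change of 0.04, with 34 above 0, and 1 was called higher and 2 lower. Actc1, the cardiac alpha-actin that young myotubes use, read 211, 167 and 377 CPM in ERK3-depleted and 328, 280 and 533 CPM in MK5-depleted libraries (0.63 ± 0.09, adjusted p = 0.0138). Control libraries held 545 ± 78.1 CPM of it (SD, n = 3), and with the outside-gene share as a term and no block the log2 fold change turned to -0.05. Klhl40, which stabilizes thin filament proteins, went the other way, with 30.1, 32.3 and 17.5 CPM in ERK3-depleted and 14.3, 14.6 and 15.1 CPM in MK5-depleted libraries (-0.82 ± 0.18, adjusted p = 0.0376). The MK5-depleted values were nearly constant, and all lay below the ERK3-depleted ones. Tmod4, a thin filament capping protein, was also lower (-1.32 ± 0.28, adjusted p = 0.0376), at no more than 2.67 CPM in any library.

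In the list for calcium handling, 2 of 27 genes were called, both lower in MK5-depleted cells, beside 2.69% of all tested genes called lower. Triadin (Trdn, chr10:33080554-33476709), which anchors calsequestrin to the calcium release channel, held 361, 513 and 146 CPM in ERK3-depleted and 145, 162 and 77.6 CPM in MK5-depleted libraries. It was 2.46-fold lower (log2 fold change -1.30 ± 0.13, adjusted p = 0.00742), and the control level of 102 ± 4.27 CPM (SD, n = 3) lay near the MK5-depleted one. Kcnj2, the inward rectifier potassium channel that hyperpolarizes human myoblasts before fusion, read 38.5, 41.3 and 31.2 CPM in ERK3-depleted and 20.3, 28.5 and 20.5 CPM in MK5-depleted libraries (-0.69 ± 0.11, adjusted p = 0.0165). Carbonic anhydrase 3 (Car3), abundant in slow muscle fibres, had 138, 229 and 82.8 CPM in ERK3-depleted and 47.6, 68.2 and 45.4 CPM in MK5-depleted libraries. No values of the lines overlapped for Car3, which was 2.62-fold lower (-1.39 ± 0.15, adjusted p = 0.00743). Of 17 tested genes of muscle energy metabolism 1 was called higher and 1 lower. Pfkm, the muscle phosphofructokinase, was higher in MK5-depleted cells (0.46 ± 0.10, adjusted p = 0.0337). Ppargc1a, the coactivator of mitochondrial biogenesis, was lower (-0.88 ± 0.21, adjusted p = 0.0484), at a mean of 2.1 CPM against 3.85 in ERK3-depleted cells. None of the list was called without pair 1 or with RSEM counts. None was called lower without pair 2, with DESeq2 or with the block in the 18-library model.

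**Figure D3:**
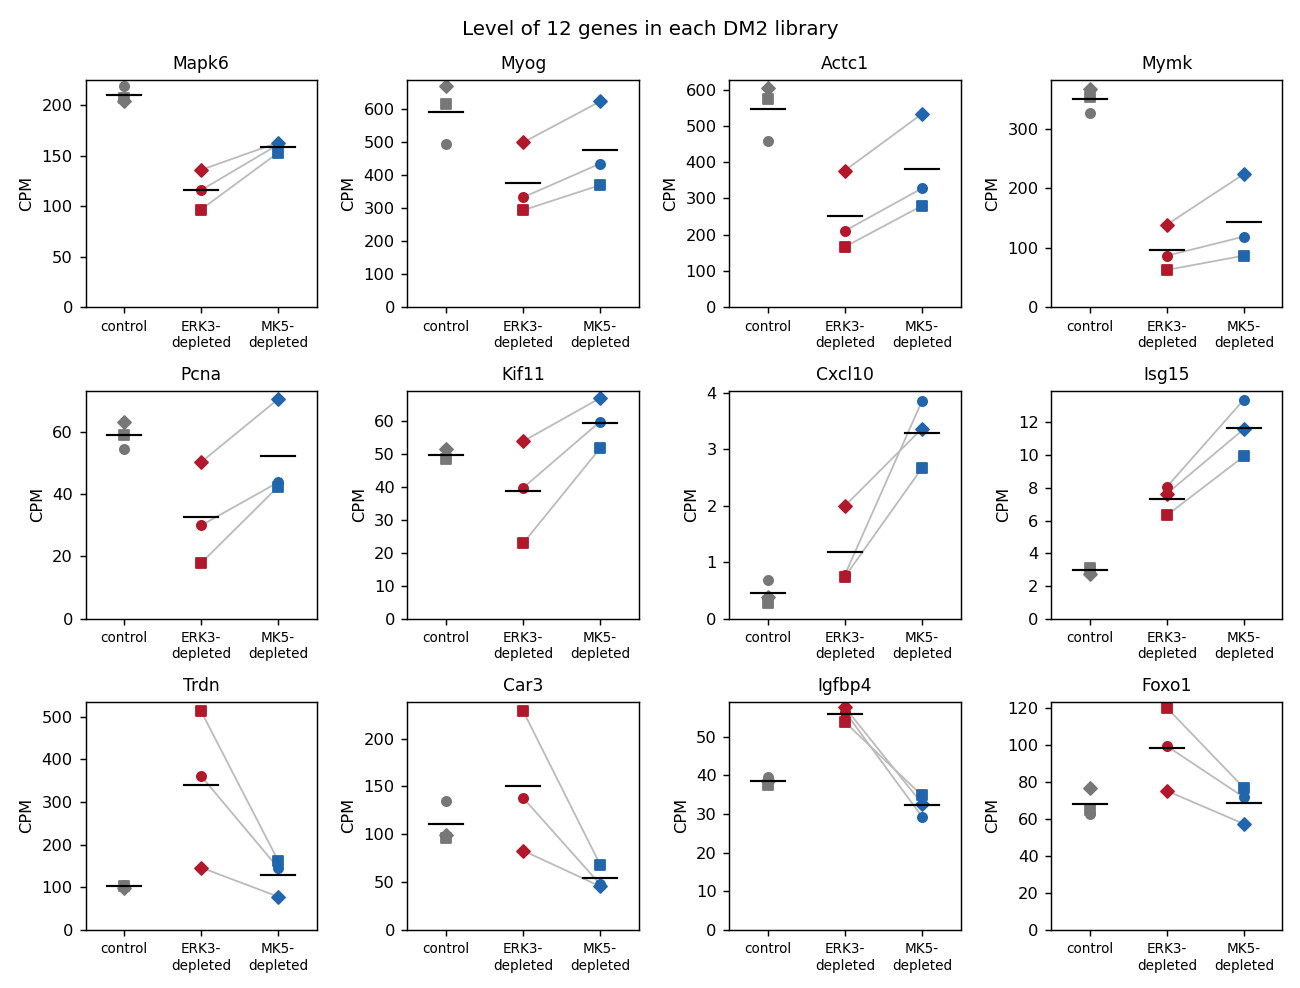
Level (CPM, axes from 0) of 12 genes in each DM2 library; circles, squares and diamonds are replicates 1, 2 and 3, grey lines join same-numbered depleted libraries and black bars are group means. Mapk6, Cxcl10, Isg15, Car3 and Igfbp4 do not overlap between the depleted lines, while Myog, Actc1, Mymk, Pcna, Kif11, Trdn and Foxo1 overlap between lines and keep 1 direction in every pair.

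Of 52 tested cell cycle genes, 10 were called higher in MK5-depleted cells and 0 lower, beside 1.41% and 2.69% of all tested genes. In all 51 lay above 0, beside 48.2% of all tested genes, the median log2 fold change was 0.30, and 39 were higher in all 3 pairs, against 22.4% of all tested genes. The number called rested on the pairs used: 2 were called without pair 1, 10 without pair 2 and 37 without pair 3, with medians of 0.29, 0.23 and 0.41, and 3 were called with RSEM counts or with the block in the 18-library model. PCNA (Pcna), the sliding clamp of DNA replication, had 30.0, 17.9 and 50.4 CPM in ERK3-depleted and 43.9, 42.5 and 70.7 CPM in MK5-depleted libraries (0.75 ± 0.14, adjusted p = 0.0269). For the mitotic kinesin Kif11 the ERK3-depleted libraries held 39.6, 22.8 and 53.7 CPM and the MK5-depleted ones 59.7, 51.6 and 66.8 CPM (0.68 ± 0.15, adjusted p = 0.0379). Pair 2 gave the widest gap for both, and its ERK3-depleted library had the lowest value of the 6. Kif20a, another mitotic kinesin, was also higher (0.77 ± 0.14, adjusted p = 0.0218), as was Mybl2, a transcription factor of dividing cells, whose libraries did not overlap (0.72 ± 0.14, adjusted p = 0.0266). The other called members were Bub1b, Plk1, Foxm1, Cdc25b, Ccnb2 and Mcm5, between 0.45 and 0.57.

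Not every proliferation marker was called. Mki67 read 173, 144 and 194 CPM in ERK3-depleted and 229, 175 and 179 CPM in MK5-depleted libraries, and Ccna2 165, 105 and 178 against 205, 166 and 153 CPM. In pair 3 both were lower in the MK5-depleted library, and neither passed (adjusted p = 0.339 and 0.33; both picked after their values were seen). With the outside-gene share as a term beside the block the median over the cell cycle list was 0.05 and none was called; without the block the signs of Pcna (-0.06) and Kif20a (-0.02) turned. The summed level of the 52 genes was 4194, 3292 and 4541 CPM in ERK3-depleted, 4982, 4210 and 4878 CPM in MK5-depleted and 3350 to 3476 CPM in control libraries. Of 8 tested inhibitors of cyclin-dependent kinases and pocket proteins none was called; Cdkn2c came nearest (0.37 ± 0.10, adjusted p = 0.0641).

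Of 37 tested genes of the interferon response, 3 were called higher in MK5-depleted cells and 0 lower, beside 1.41% and 2.69% of all tested genes. In all 34 lay above 0, and the median log2 fold change was 0.36. None of the list was called without pair 1, 5 were without pair 2 and 15 without pair 3. Cxcl10, a chemokine induced by interferon, held 0.778, 0.744 and 2.00 CPM in ERK3-depleted and 3.86, 2.67 and 3.37 CPM in MK5-depleted libraries, from 12 to 70 reads. It was 2.87-fold higher (log2 fold change 1.52 ± 0.31, adjusted p = 0.0314), against a control level of 0.446 ± 0.206 CPM (SD, n = 3). Ifit3, an antiviral protein, read 1.5, 1.67 and 2.68 CPM in ERK3-depleted and 4.86, 5.18 and 3.52 CPM in MK5-depleted libraries (1.21 ± 0.27, adjusted p = 0.0434). The ubiquitin-like modifier Isg15 read 8.06, 6.32 and 7.64 against 13.4, 9.93 and 11.6 CPM (0.66 ± 0.13, adjusted p = 0.0305). None of these 3 genes overlapped between the lines, and all are low; Isg15 in control cells was lower than in either depleted line, at 2.97 ± 0.216 CPM (SD, n = 3). With the outside-gene share as a term the median over the list was 0.27 and no member was called.

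The 3 called interferon genes are shown with the 250 bases before their start sites, from RefSeq's GRCm38.p6 promoter table and 5′ to 3′ on the gene's strand, because they moved together and each carries a match to the response element that interferon-regulated factors bind. Capitals mark every match, on either strand, to GAAA followed after 2 bases of any kind by a second GAAA; overlapping matches run together. This motif was added after the data had been seen. The Cxcl10 window is chr5:92348890-92349139, that of Ifit3 chr19:34583279-34583528 and that of Isg15 chr4:156200819-156201068.
Cxcl10: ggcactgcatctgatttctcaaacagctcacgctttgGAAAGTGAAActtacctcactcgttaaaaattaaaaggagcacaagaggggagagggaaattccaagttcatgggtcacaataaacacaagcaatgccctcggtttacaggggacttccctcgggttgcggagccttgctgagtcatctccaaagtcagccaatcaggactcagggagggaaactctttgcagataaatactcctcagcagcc
Ifit3: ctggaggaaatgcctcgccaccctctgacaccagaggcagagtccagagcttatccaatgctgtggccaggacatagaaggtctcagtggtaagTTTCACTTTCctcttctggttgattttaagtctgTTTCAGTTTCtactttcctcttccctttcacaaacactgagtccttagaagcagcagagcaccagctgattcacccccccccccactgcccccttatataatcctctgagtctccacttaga
Isg15: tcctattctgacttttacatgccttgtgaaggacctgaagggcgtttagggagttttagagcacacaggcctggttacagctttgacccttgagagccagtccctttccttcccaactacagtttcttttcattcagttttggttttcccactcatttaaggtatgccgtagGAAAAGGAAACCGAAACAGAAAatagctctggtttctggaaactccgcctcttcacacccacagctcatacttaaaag
The Cxcl10 window holds 1 match, that of Ifit3 2 and that of Isg15 3, which overlap. Over the 300 bases of the table, 16 of the 30 tested interferon list members with a promoter entry (53.3%) held the motif, beside 3.53% of the 9751 tested genes with one. Among all called genes the share was 6.45% of those higher and 5.53% of those lower.

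FoxO3 and its targets showed no called difference between the lines. Foxo3 read 54.8, 47.7 and 58.3 CPM in ERK3-depleted and 47.3, 51.9 and 52.5 CPM in MK5-depleted libraries (-0.08 ± 0.10, adjusted p = 0.669); control cells had 69.5 ± 2.80 CPM (SD, n = 3). Foxo1, a related factor that acts in muscle as well, was lower in MK5-depleted cells: 99.3, 120 and 75.1 CPM in ERK3-depleted against 71.6, 76.7 and 57.2 CPM in MK5-depleted libraries (-0.51 ± 0.09, adjusted p = 0.0218). The MK5-depleted level was that of control cells, 68.0 ± 7.41 CPM (SD, n = 3). Of 32 tested FoxO target genes, among them the atrophy ubiquitin ligases and stress resistance genes, 0 were called in either direction, the median log2 fold change was -0.07 and 12 lay above 0. The smallest p in that list was that of Pik3ca, at a log2 fold change of -0.30 ± 0.08 (adjusted p = 0.0789). DESeq2 with the block called 0 of them as well, while without pair 3 edgeR called 2 higher and 5 lower. The FoxO motif TGTTTAC, on either strand, was in 3.23% of the promoters of genes called higher, 4.02% of those called lower and 3.03% of all.

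**Figure D4:**
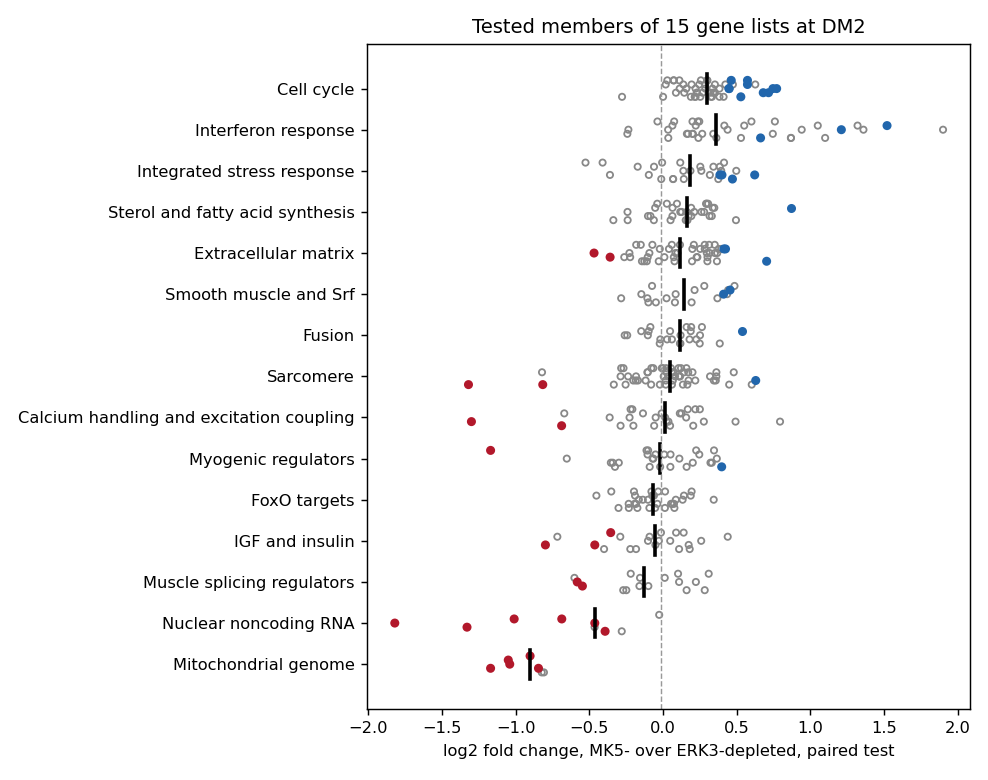
Log2 fold change of MK5-depleted over ERK3-depleted cells at DM2 (paired test) for the tested members of 15 gene lists. Filled points are called genes, open points are not, black bars are list medians and the dashed line is the median of all tested genes; cell cycle and interferon medians lie at 0.30 and 0.36, those of nuclear noncoding and mitochondrial RNAs at -0.46 and -0.90.

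In the list of insulin-like growth factor (IGF) signalling 3 of 21 were called, all lower in MK5-depleted cells, beside 2.69% of all tested genes. The list also holds imprinted genes, and Peg3, among the 3 called, is such a gene. Of the list 1 was called lower without pair 1, or with RSEM counts. Igfbp4, a secreted protein that binds IGFs and limits their action, held 56.5, 53.8 and 57.6 CPM in ERK3-depleted and 29.3, 34.8 and 32.7 CPM in MK5-depleted libraries. Its replicates were tight, its groups far apart, and it was the gene nearest to a call without the block (1.74-fold lower, log2 fold change -0.80 ± 0.10, paired adjusted p = 0.00993, unpaired 0.495). It was 1 of 3 called genes that also passed with the outside-gene share as a term (adjusted p = 0.043), and control cells held 38.6 ± 0.904 CPM (SD, n = 3). Igf1r, the IGF receptor, was lower (-0.46 ± 0.10, adjusted p = 0.0331), as was Peg3, an imprinted zinc finger gene (-0.36 ± 0.08, adjusted p = 0.0474), whose sign turned with the outside-gene share as a term and no block (0.06).

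In the list for TGF-beta, activin and BMP, 3 of 35 genes were called, all lower and all secreted: Fst, the activin and myostatin antagonist (-0.51 ± 0.12), Grem1, a BMP antagonist (-0.46 ± 0.11), and Inhbb, an activin subunit (-0.38 ± 0.08), with adjusted p between 0.0419 and 0.0491. Over all tested genes 2.69% were called lower. None of the list was called without pair 1 or with RSEM counts, and 7 in each direction were without pair 3. Fst read 70.0, 77.6 and 65.6 CPM in ERK3-depleted and 54.5, 42.8 and 52.8 CPM in MK5-depleted libraries, without overlap. Fst and Grem1 lost the call with the TMM factors from all genes (adjusted p = 0.0515 and 0.0525), as did Peg3 (0.0564). Serpine2, a secreted protease inhibitor, read 52.5, 60.3 and 49.1 CPM in ERK3-depleted and 29.6, 34.6 and 30.1 CPM in MK5-depleted libraries (-0.78 ± 0.09, adjusted p = 0.00849). For Msln, which encodes mesothelin, a surface protein, the values were 57.5, 43.8 and 42.0 against 25.9, 28.2 and 28.8 CPM (-0.78 ± 0.13, adjusted p = 0.0166). Neither gene overlapped between lines; they were taken up because DESeq2 called them without the block. Enpp2, the enzyme autotaxin that makes lysophosphatidic acid, had 20.7, 30.1 and 14.9 CPM in ERK3-depleted and 7.07, 14.5 and 9.73 CPM in MK5-depleted libraries (-1.07 ± 0.17, adjusted p = 0.0155).

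Of 45 tested matrix genes 3 were called higher in MK5-depleted cells and 2 lower, beside 1.41% and 2.69% of all tested genes. Without pair 1 none was, and without pair 3 the counts were 19 and 3. Loxl2, a collagen crosslinking enzyme, read 17.3, 10 and 17.4 CPM in ERK3-depleted and 26.4, 20.7 and 24.6 CPM in MK5-depleted libraries (0.70 ± 0.13, adjusted p = 0.0254). The basement membrane collagen Col4a1 (0.42 ± 0.09) and Col12a1 (0.41 ± 0.09) were higher too, while decorin (Dcn), a small proteoglycan, was lower (-0.47 ± 0.10), with adjusted p between 0.0323 and 0.0404. The other lower one was Col8a1 (-0.36, adjusted p = 0.049). With the outside-gene share as a term and no block Dcn stood at 0.002. Of 18 tested genes of the smooth muscle and Srf list 2 were called higher, the enteric actin Actg2 (0.46 ± 0.11) and filamin A, Flna (0.41 ± 0.09), and of 19 YAP-TAZ targets 2 as well, Ccn2 (0.43 ± 0.09) and F3 (0.47 ± 0.10). Their adjusted p lay between 0.0358 and 0.0471. Neither list held a call without pair 1. With RSEM counts 0 of the smooth muscle and Srf list were called, and 2 of the YAP-TAZ list were called higher. With the block in the 18-library model the first list had 0 called higher and 1 lower, and the second 1 in each direction. Without pair 3 the first had 5 higher and 1 lower, and the second 4 and 2. Among 28 genes of ERK pathway feedback 3 were called higher. Dusp4, a phosphatase of MAP kinases, had 14.2, 14.5 and 29.7 CPM in ERK3-depleted and 30.0, 26.4 and 39.0 CPM in MK5-depleted libraries (0.76 ± 0.14, adjusted p = 0.022), with a control level of 55.0 ± 4.50 CPM (SD, n = 3). Egr3 (1.19 ± 0.26) and Junb (0.42 ± 0.08), both immediate early transcription factors, were the others. None of that list was called without pair 1 and 11 were without pair 3, and with the outside-gene share and no block Egr3 (-0.25) and Junb (-0.01) turned sign.

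Of 27 genes of the integrated stress response 4 were called higher, Fgf21 (0.62 ± 0.14), Trib3 (0.47 ± 0.10), Asns (0.40 ± 0.09) and Phgdh (0.39 ± 0.09), with adjusted p from 0.0376 to 0.0448; the median over the list was 0.19. Over all tested genes 1.41% were called higher. None of the list was called without pair 1, 12 were called higher and 2 lower without pair 3, and with the outside-gene share and no block Fgf21 turned to -0.15. Asns, the asparagine synthetase, read 103, 81.1 and 110 CPM in ERK3-depleted and 139, 112 and 136 CPM in MK5-depleted libraries. Ddit3 and Atf4, the transcription factors of that response, had log2 fold changes of -0.41 and -0.06 and were not called. In the list for sterol and fatty acid synthesis 1 of 33 was called, Fads2, the fatty acid desaturase, with 45.6, 35.1 and 79.4 CPM in ERK3-depleted and 94.0, 78.3 and 107 CPM in MK5-depleted libraries (0.87 ± 0.14, adjusted p = 0.0155). It was higher in each pair and stood at 91.6 ± 14.5 CPM in control cells (SD, n = 3). The heat shock list held 1 gene in each direction, Hspa8 higher (0.45 ± 0.10, adjusted p = 0.0423) and Hsp90aa1 lower (-0.51 ± 0.12, adjusted p = 0.0459). With RSEM expected counts Hspa8 was not called (adjusted p = 0.844). Hyou1 was the 1 called of 24 endoplasmic reticulum chaperone genes (0.51, adjusted p = 0.0328). Atg9a was the 1 called of 39 autophagy and lysosome genes (1.28, adjusted p = 0.0155). Of 40 ribosomal protein genes 2 lay above 0, the median was -0.21 and 1 was called, Rps2 (-0.57, adjusted p = 0.0385). Without pair 3, 20 of them were called lower. With the outside-gene share beside the block their median was 0.15. With RSEM counts the heat shock, endoplasmic reticulum chaperone, autophagy and lysosome, and ribosomal protein lists held no call. The integrated stress response list and the sterol and fatty acid list then held 1 each, higher.

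Splicing regulators of muscle were lower where called, 2 of 16: Mbnl1, at 557, 638 and 398 CPM in ERK3-depleted and 352, 455 and 264 CPM in MK5-depleted libraries (-0.58 ± 0.09, adjusted p = 0.0154), and Celf2 (-0.55 ± 0.09, adjusted p = 0.0156). Over all tested genes 2.69% were called lower, and no member of the list was called without pair 1. These proteins act against each other in splice site choice during muscle development. Each pair shows the difference for Mbnl1, and control cells held 505 ± 40.2 CPM (SD, n = 3), near the ERK3-depleted level. Sox8, a gene of the satellite and reserve cell list, was the 1 of 13 called there, and higher (0.56 ± 0.10, adjusted p = 0.0191).

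Among genes that no list held, those called with the largest fold change and no overlap between lines were taken up as well. Colec10, a secreted collectin, had 24.6, 9.17 and 27.3 CPM in ERK3-depleted and 46.8, 37.8 and 41.7 CPM in MK5-depleted libraries, a 2.21-fold difference (1.14 ± 0.22, adjusted p = 0.0264). Svep1, an extracellular adhesion protein, read 14.6, 17.9 and 20.7 against 24.1, 30.3 and 38.1 CPM (0.79 ± 0.11, adjusted p = 0.0118). Dync1i1, a dynein intermediate chain, Adamtsl3, Galnt18, Osbpl10, Polh, the translesion DNA polymerase, Rpusd2 and Ncapd3, a condensin subunit, were also higher, between 0.69 and 1.08. The antisense transcript Prss23os was higher at 1.46 ± 0.23, from 1.55 to 6.90 CPM per library (adjusted p = 0.0155). Among those lower, Nkd2, an inhibitor of Wnt signalling, held 77.3, 119 and 48.0 CPM in ERK3-depleted and 38.0, 43.0 and 39.3 CPM in MK5-depleted libraries (-0.94 ± 0.18, adjusted p = 0.0278). Ubn2, a chromatin protein of the HIRA complex, read 86.5, 126 and 53.3 against 51.5, 53.1 and 32 CPM (-0.92 ± 0.12, adjusted p = 0.00993). The other lower genes were Tcim, Mob3b, Zmat1, Clip4, Hoxa5, Nhs and Atp6v0d2, between -0.99 and -0.87.

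The genes with the most reads among those called were noncoding and mitochondrial, and all were lower in MK5-depleted cells. Malat1 (chr19:5795690-5802672), a nuclear long noncoding RNA, held 6576, 12656 and 1701 CPM in ERK3-depleted and 2604, 2500 and 496 CPM in MK5-depleted libraries. It was 3.52-fold lower (-1.82 ± 0.17, adjusted p = 0.00742), in a range where libraries of the same line differed more than that, and control cells held 146 ± 7.98 CPM (SD, n = 3). Neat1, the RNA scaffold of paraspeckles, read 158, 261 and 87.0 CPM in ERK3-depleted against 85.0, 106 and 48.8 CPM in MK5-depleted libraries (-1.01 ± 0.11, adjusted p = 0.00742). Kcnq1ot1 and Xist were lower too, as were Snhg8 and Gas5, host genes of small nucleolar RNAs. That made 6 of 9 tested members of the list named nuclear noncoding RNA, which holds both kinds, with a list median of -0.46. With the block in the 18-library model 0 of the 9 were called, and 4 were without pair 1, without pair 2 or with RSEM counts. Of 7 tested mitochondrial protein genes 5 were called lower, with a median of -0.90: mt-Nd1, mt-Nd2, mt-Nd4, mt-Nd6 and mt-Cytb. With the block in the 18-library model, or with RSEM counts, 0 of the 7 were called (RSEM median -0.92), and 2 were without pair 2. The mitochondrial ribosomal RNA mt-Rnr2 held 7356, 11023 and 3662 CPM in ERK3-depleted and 4386, 4923 and 1348 CPM in MK5-depleted libraries (-1.12 ± 0.13, adjusted p = 0.00849).

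These RNAs moved with the share of reads outside genes. That share was the highest in ERK3-depleted library 2, as were Malat1, Neat1 and mt-Rnr2, and the lowest of the 6 in MK5-depleted library 3, as were those 3 RNAs. With the share as a term beside the block none of the nuclear noncoding or mitochondrial list members was called; the noncoding median moved from -0.46 to -0.20 and the mitochondrial one from -0.90 to -0.93. Without the block, the share as a term took the log2 fold changes of Malat1 and mt-Rnr2 to 0.006 and 0.005. More generally, the genes called lower were rich in A and T: the median GC content of their longest transcript was 44.3%, beside 51.9% for those called higher and 49.7% for all tested genes. They also held 34 of the 145 tested entries of the annotation class TEC, short genomic transcripts with little other evidence, of which 0 were called higher, and 73.9% of them were protein coding, against 87.6% of the higher and 90.2% of all genes. When each library's trend with transcript length and GC content was removed, 673 genes were called higher (5.13%) and 709 lower (5.4%), and 506 of the 538 were called again in the same direction. The part that RNA quality or library preparation had in these differences was not tested.

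Where the control line stood relative to both depleted lines was counted without a test, since no control library entered the comparison. Of the 353 lower genes the control mean was below both depleted means for 261, between them for 61 and above both for 31; on the log2 scale it lay nearer to the MK5-depleted mean for 299. Of the 185 higher genes the control mean was above both for 118, between for 47 and below both for 20, and it lay nearer to the MK5-depleted mean for 147. The same counts over all tested genes were not made, so these have no background share. For a lower gene with the control mean below both, or a higher gene with it above both, nearness to the MK5-depleted mean follows by definition. The counts of position and of nearness therefore repeat each other in large part. Serpine2, Igfbp4 and Klhl40 differ from one another in their control level. For Serpine2 (60.0 ± 6.82 CPM in control cells) and Klhl40 (23.7 ± 2.23) it lay near the ERK3-depleted one, and for Igfbp4 near the MK5-depleted one (SD, n = 3 each).

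In growth medium the same lines were compared in libraries that the DM2 test did not use. No gene of 13003 was called without the block (smallest adjusted p = 0.202; 1381 genes, 10.6%, at an unadjusted p under 0.05), while DESeq2 called 27 genes higher and 13 lower. Of the 184 genes called higher at DM2 and tested in GM, 150 (81.5%) had the same sign there, as did 174 of 306 lower ones (56.9%) and 63.9% of all genes tested in both. The median log2 fold change in GM was 0.16 for the former and -0.04 for the latter. The Mapk6 difference was of like size in both media, with 115, 105 and 133 CPM in ERK3-depleted and 174, 142 and 175 CPM in MK5-depleted GM libraries (log2 fold change in GM 0.48 ± 0.11; adjusted p of the interaction 0.987). Control GM libraries held 150, 119 and 124 CPM of Mapk6, so both depleted lines overlapped the control there, whereas at DM2 both lay below it. Igfbp4 was lower in MK5-depleted cells there too, at 2.30, 4.66 and 2.21 against 6.27, 7.11 and 5.04 CPM (-1.01 ± 0.26), and so was Serpine2, at 28.2, 30.0 and 24.3 against 38.8, 45.0 and 36.4 CPM (-0.54 ± 0.11). The lines did not overlap for these 3 genes in GM, nor for Msln, Trdn and Car3, which were lower as at DM2; over all genes tested in GM 7.63% were higher and 6.75% lower in every MK5-depleted library. Of the genes called at DM2, 35 of the 184 higher and 36 of the 306 lower ones did not overlap in GM in the same direction, and 3 and 16 in the opposite one. Without the block none of the 6 genes was called in GM (adjusted p from 0.287 to 0.373). With the block 251 genes were called there (1.93%), 155 higher (1.19%) and 96 lower (0.738%), among them all 6 (adjusted p from 0.00377 to 0.0328), 17 of the genes called higher at DM2 and 24 of those called lower, each in the same direction; in GM not every pair of same-numbered libraries moved together. Malat1 read 276, 297 and 241 CPM in ERK3-depleted and 86.1, 271 and 314 CPM in MK5-depleted GM libraries, and thus overlapped.

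Whether the difference between lines changed with differentiation was asked with the interaction of line and medium over 12 libraries. Of 13651 genes 0 were called by edgeR, by edgeR with the block or by DESeq2; the smallest edgeR adjusted p was 0.343, and 683 genes (5.0%) had an unadjusted p under 0.05. For Myog the log2 fold change was 0.35 at DM2 and -0.66 in GM, where its libraries held 42.9, 26.2 and 25.9 CPM in ERK3-depleted and 29.9, 11.7 and 18.3 CPM in MK5-depleted cells; the interaction had an adjusted p of 0.938. The sarcomere list had a median of 0.04 at DM2 and -0.44 in GM, and the mitochondrial list -0.90 and 0.18.

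The lines were also set against markers of other cell types. A count of 0 need not mean that a gene is silent in these data: mt-Atp6, mt-Atp8, mt-Co2, mt-Co3, mt-Nd3 and mt-Nd4l, which every cell uses, were also listed at 0 in all 6 libraries. All 10 muscle markers were tested, and their summed level was 5143, 4589 and 5343 CPM in ERK3-depleted and 5362, 4430 and 5847 CPM in MK5-depleted libraries. Endothelial markers summed to at most 1.88 CPM and macrophage markers to at most 12.5 CPM in any of the 6 libraries, with Cldn5, Emcn, Tie1, Adgre1 and Tyrobp at 0 in all 6. Adipocyte markers summed to 47.1 to 93.1 CPM, with Adipoq, Cfd, Cidec, Lep and Plin1 at 0; the 1 called of 3 tested was Lpl, lower in MK5-depleted cells (-0.61 ± 0.11, adjusted p = 0.0239). Epithelial markers summed to 22.4 to 29.3 CPM in ERK3-depleted and 14.5 to 17.0 CPM in MK5-depleted libraries, with Krt14 called lower (-0.79 ± 0.14, adjusted p = 0.0218) and Krt5 at 0. Bone and cartilage markers overlapped (984 to 1490 against 1220 to 1346 CPM; Sox9 and Alpl were called lower, Acan and Ibsp at 0), as did neuronal (141 to 244 against 207 to 255 CPM; Snap25 at 0) and fibroblast markers (4178 to 5228 against 4735 to 6086 CPM; Tcf21 and Thy1 at 0). Fewer cells of a type and less RNA per cell cannot be told apart in such bulk samples.

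Promoters of the called genes were read for muscle motifs as well. The E-box CAGCTG, of the kind MyoD binds, was in 25.8% of the 124 promoters of genes called higher, in 16.6% of the 199 of genes called lower and in 18.2% of all 9751. The MEF2 motifs TATTTATA and CTAAAAATA, on either strand, were in 0 of the 124, in 4.52% of the 199 and in 1.54% of all. These are descriptions of letters in a window of 300 bases, and the sets differ in GC content as given above.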

How the data were processed

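Poly-A RNA was sequenced from stranded libraries, per the labels' protocols. Gene counts were used as deposited: the authors' whole-number counts of uniquely mapped reads, with GRCm38, bcl2fastq 2.17 and STAR 2.5.1b named in the submitters' processing notes. The reverse-strand column was used, and lines that name no gene (24.1 to 35.8% of the reads of the 6 libraries) were left out. RSEM 1.2.28, named in the same notes, gave the deposited expected counts, rounded for the test. Its deposited TPM were printed for the targeted genes only. Symbols and positions come from GENCODE M21, which matched 50376 of 50600 identifiers.

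Genes were kept by filterByExpr, and TMM factors were computed over all 18 libraries. edgeR 4.0.16 (R 4.3.3) quasi-likelihood tests were fitted to the 6 libraries of a comparison, or to 12 for the interaction, and p-values were adjusted by Benjamini-Hochberg over all genes tested. The standard error is the log2 fold change over the square root of F. The planned design had no block. At DM2 same-numbered libraries of the lines deviated together from their group means (correlations over genes of 0.3162, 0.3852 and 0.5315, each above 0.1). This came from the data and not from a label, and blocked results are given there. The limit of 0.1 does not separate libraries 1 and 2 by number. MK5-depleted 1 with ERK3-depleted 2 gave 0.1512, and MK5-depleted 2 with ERK3-depleted 1 gave 0.1576. Library 3 with another number gave -0.4171 to -0.3058. In GM 1 of the same-numbered correlations was 0.0568 and the test without the block is the main one. Genes were named by a rule applied to the paired test, a choice made after the unpaired test had called none: Mapk6, Mapkapk5, Foxo3, the 12 largest calls in each direction with at least 5 CPM and no overlap, and up to 4 called members of each of 42 lists. Not every list or gene under this rule is described above. Members, lists and tests were chosen with earlier results of these data known, and TMM over filtered genes was settled after results with TMM over all genes had been seen. Scripts were tested on simulated counts. Limits from counting apply to low genes, and no library was a copy of another (squared differences at least 7.98 times the counting variance). DESeq2 1.42.0, limma-voom (limma 3.58.1), RLE, other filters, unstranded counts, RSEM counts, a covariate, length and GC offsets (natural splines with 5 degrees of freedom) and left-out libraries were alternatives.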

Additional observations from a re-analysis of the deposited data

Results flagged for a closer look

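Ubn2 and Nhs had opposite signs in the media, though neither change of sign passed a test. They are not alone in this. Of the genes called lower at DM2, 16 did not overlap in GM in the opposite direction, as did 3 of those called higher. Over all genes tested in GM, 7.63% were higher and 6.75% lower in every MK5-depleted library. For Ubn2 and Nhs every MK5-depleted library lay below every ERK3-depleted one at DM2, and in GM every one lay above. Ubn2 read 24.8, 25.6 and 28.3 CPM in ERK3-depleted and 29.1, 29.4 and 29.9 CPM in MK5-depleted GM libraries, and its interaction was -1.13 on the log2 scale (edgeR adjusted p = 0.938, unadjusted 0.00581). Nhs read 4.61, 4.45 and 4.93 against 5.06, 5.38 and 7.90 CPM in GM, with an interaction of -1.22 (adjusted p = 0.938, unadjusted 0.00954). Neither interaction was called.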

How the results depend on the processing

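Without the block at DM2, 0 genes were called in either direction under TMM over the 6 libraries or over all genes with a count, RLE, limma-voom, 1 CPM in 3 libraries, the 18-library model, unstranded counts, RSEM counts, the outside-gene share as a covariate and the length and GC offsets. DESeq2 called 1 higher and 4 lower genes, no filter 1 and 3, the replicate block 185 and 353, and the block in the 18-library model 128 and 240; leaving out 1 library gave 0 to 618 higher and 0 to 807 lower.

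In GM, DESeq2 called 27 higher and 13 lower, no filter 147 and 82, RSEM counts 1 lower, and leaving out 1 library 0 to 5 higher and 0 to 1 lower. The replicate block in GM called 155 higher and 96 lower genes; same-numbered correlations there were 0.0568, 0.4135 and 0.2647, and library 1 did not correlate best with its own number. The interaction had 60 higher and 135 lower calls with no filter and 0 to 1 and 0 to 6 with 1 library left out; the replicate block changed no call there.

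For the paired DM2 test, no replicate block gave 0 and 0 calls, no filter 645 and 996, RSEM counts 88 and 145, length and GC offsets 673 and 709, the covariate 0 and 9, and leaving out a replicate 26 to 1433 higher and 117 to 1465 lower. Higher and lower counts were 220 and 351 with TMM over the 6 libraries, 211 and 387 with RLE, 234 and 359 with DESeq2 and 168 and 376 with limma-voom. The cause of these shifts was not tested.

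Log2 fold changes that turned sign were those of Aen and Hspa8 with RSEM counts (-0.086 and -0.044 unpaired, -0.087 and -0.041 with the replicate block). With the covariate and the block they were Mapkapk5 (0.677), Tek (0.199), Tubb3 (-0.164), Mki67 (-0.007) and Ccna2 (-0.34). With the covariate and no block they were Mymk (-0.169), Actc1 (-0.053), Dok7 (-0.003), Kif20a (-0.018), Pcna (-0.06), Aen (-0.025), Fgf21 (-0.154), mt-Nd6 (0.116), mt-Nd2 (0.054), mt-Nd1 (0.082), mt-Nd4 (0.146), Dcn (0.002), Peg3 (0.06), Egr3 (-0.249), Junb (-0.012), Mt2 (0.078), Psma4 (0.004), Malat1 (0.006), Kcnq1ot1 (0.115), Hist1h2bc (0.078), Lpl (0.216), Cd68 (0.31), Tubb3 (-0.341), mt-Rnr2 (0.005), Ccna2 (-0.045) and Myog (-0.113). With a library left out and no block, Mapkapk5 ran from -0.232 to 0.076, Foxo3 from -0.151 to 0.003, Tek from -0.425 to 0.116 and Myod1 from -0.014 to 0.126; with the block, Mapkapk5 reached 0.228 without pair 2 and Myod1 -0.014 without pair 3.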
